A study of Mus musculus with 18 samples.

Results

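This set held the genes of programmed cell death that carry the names of the BCL2, caspase (Casp), inhibitor of apoptosis (Birc), programmed cell death (Pdcd), Bnip, Bag and Aifm families, together with Bak1, Bad, Bid, Bok, Mcl1, Apaf1, Cflar, Diablo, Cycs and Endog. Genes were chosen by symbol. Of 50 matching symbols, 2 were left out by the same rule, which left 48 members of the 9636 genes measured with a probe set of a single symbol. Each member was represented by 1 probe set. Bax, Bbc3, Bik and Bmf are not analysed here.

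The cells came from the marrow of Balb/c mice with an established myeloproliferative neoplasm (MPN) made by retroviral transfer of GFP-tagged JAK2V617F, an activated form of the kinase JAK2 that is common in human MPN, so the mutant gene was expressed from a vector. Marrow from several mice per experiment was cultured for 16 h in IL-3 (50 ng/mL) and SCF (100 ng/mL), with a TNFR2 blocking antibody (BA), with a TNFR1 BA, each at 10 μg/mL, or untreated. Lin-Kit+ cells, an immature and progenitor fraction, were then sorted by GFP. The 6 groups were TNFR2 BA, TNFR1 BA and untreated JAK2V617F+ (GFP+) cells, and TNFR2 BA, TNFR1 BA and untreated JAK2V617F- (GFP-) cells, with 3 arrays each. The JAK2V617F- cells came from the same diseased mice and the same cultures, so no group stood for cells of a healthy mouse. The genotype comparison asked how the mutant cells differed from their neighbours, and the antibody comparisons asked what block of either TNF receptor did in each genotype.

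In the mitochondrial pathway of apoptosis, BH3-only proteins such as Bim (Bcl2l11), Bid and Bad relieve the restraint that Bcl2, Bcl-xL (Bcl2l1), Bcl-w (Bcl2l2) and Mcl1 place on the pore formers Bak1 and Bax. Cytochrome c (Cycs) and Smac (Diablo) then leave the mitochondrion. Cytochrome c assembles Apaf1 and caspase-9 into the apoptosome, and Smac binds inhibitor of apoptosis (IAP) proteins. Cflar (c-FLIP) holds back the death receptor route, on which TNF can act through TNFR1. JAK2-STAT5 signalling is known to induce Bcl2l1 in erythroid cells, and Mcl1 is needed by hematopoietic stem cells.

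The values were log2 signals, from a lowest value of 2.22 that every array shared to 15.49. The authors left out untreated JAK2V617F+ replicate 3, whose median of 6.05 lay below the 7.41 to 7.75 of the other 17 arrays, and the same 17 arrays (8 JAK2V617F+ and 9 JAK2V617F-) were used here. Of these, untreated JAK2V617F+ replicate 2 had the lowest mean correlation with the other arrays (0.680, against 0.716 to 0.777 for the rest of the 17). With 2 or 3 arrays per group the number of arrays limits the precision. Kit had log2 signals of 3.71 to 9.95 and Cd34 of 7.12 to 12.04 over the 17 arrays, although all cells had been sorted for Kit. Mast cell and basophil markers were higher in JAK2V617F+ cells over the treatments, with 10 of 10 measured genes above 0 and 6 past an adjusted p of 0.05, and a mean log2 signal of 10.57 to 12.17 on JAK2V617F+ arrays and 6.44 to 8.46 on JAK2V617F- arrays. Erythroid markers were above 0 for 12 of 12 (3 past the threshold), with a mean of 8.43 to 10.95 in JAK2V617F+ and 6.15 to 8.26 in JAK2V617F- cells. Of 11 monocyte, macrophage and dendritic markers 7 were below 0, with a median difference of -1.40, and H2-Aa was lower past the threshold. B cell markers were below 0 for 6 of 6, with none past it. The part of these shifts in any member's genotype difference was not tested. Fewer cells of a type and less RNA per cell cannot be told apart in such bulk samples.

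Cell death genes were measured over the whole range of the arrays (plot of every member by genotype). The mean log2 signal of the 48 members had a median of 7.33, against 7.18 for all 10335 probe sets. It was over 9 for 18 members and under 5 for 9. Members varied within groups about as other genes did, with a median standard deviation (SD) of 1.44 against 1.45 for all probe sets. Brighter members varied less. The 12 members with a mean over 10 had an SD of 0.29 to 1.40 (median 0.595), and the other 36 had one of 0.66 to 3.89 (median 1.66).

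**Figure D1:**
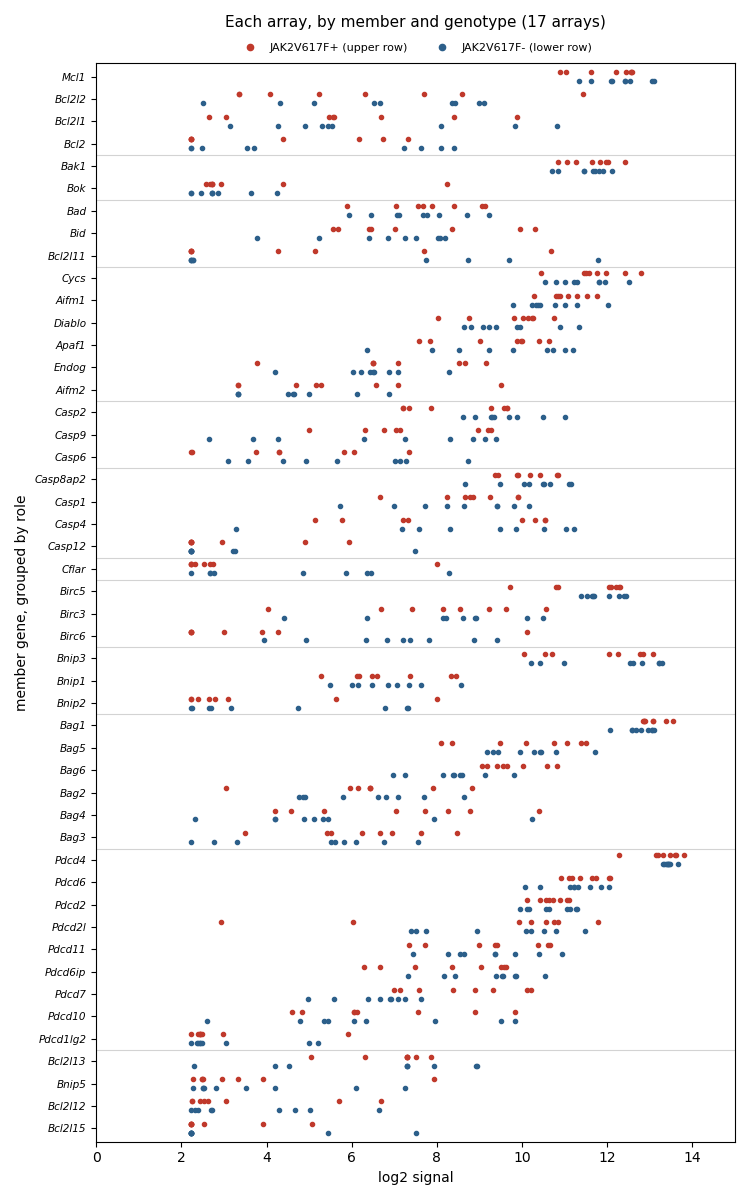
Log2 signal (x axis) of each of the 48 members on the 17 arrays, with members grouped by role on the y axis, JAK2V617F+ arrays as red points above and JAK2V617F- arrays as blue points below. Mcl1, Bak1, Cycs, Birc5, Bag1 and Pdcd4 lay at high signal, and Bag1, Pdcd4 and Bak1 spread least among them. Birc5 lay between 9.73 and 12.44. Bcl2, Bcl2l1, Bcl2l2 and Bcl2l11 spread over several log2 units in both genotypes.

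The steadiest members were Bag1 (SD 0.29), a co-chaperone of Hsp70, Pdcd4 (0.36), an inhibitor of translation initiation, Pdcd2 (0.41), Pdcd6 (0.42), a calcium-binding protein, and Bak1 (0.52). Mcl1 (0.59), Cycs (0.60), Birc5 (0.62) and Diablo (0.66) followed. The most variable were Bcl2l11 (3.89), Bcl2l2 (2.86), Bcl2 (2.70), Bcl2l1 (2.68) and Pdcd2l (2.62). Bcl2l11, the BH3-only activator, was read at 11.77, 2.26 and 2.22 in TNFR1 BA JAK2V617F- replicates 1 to 3, a single group.

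Among the anti-apoptotic genes the same contrast held. Mcl1 lay between 10.90 and 12.58 (median 12.32) on JAK2V617F+ arrays and between 11.34 and 13.09 (median 12.41) on JAK2V617F- arrays. Bcl2l1 was read between 2.64 and 9.89 in JAK2V617F+ cells and between 3.14 and 10.81 in JAK2V617F- cells. Bcl2l2 lay between 3.36 and 11.44 in JAK2V617F+ cells, against 2.52 to 9.10 in JAK2V617F- cells. Bcl2 stood at the lowest value on 6 of the 17 arrays, and reached 7.32 in JAK2V617F+ and 8.41 in JAK2V617F- cells. The genotypes overlapped for each of these genes. Single groups held much of the spread. Bcl2l1 was read between 3.14 and 10.81 within TNFR1 BA JAK2V617F- cells, Bcl2l2 between 3.36 and 11.44 within TNFR1 BA JAK2V617F+ cells and Bcl2 between 2.22 and 8.41 within TNFR2 BA JAK2V617F- cells.

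**Figure D2:**
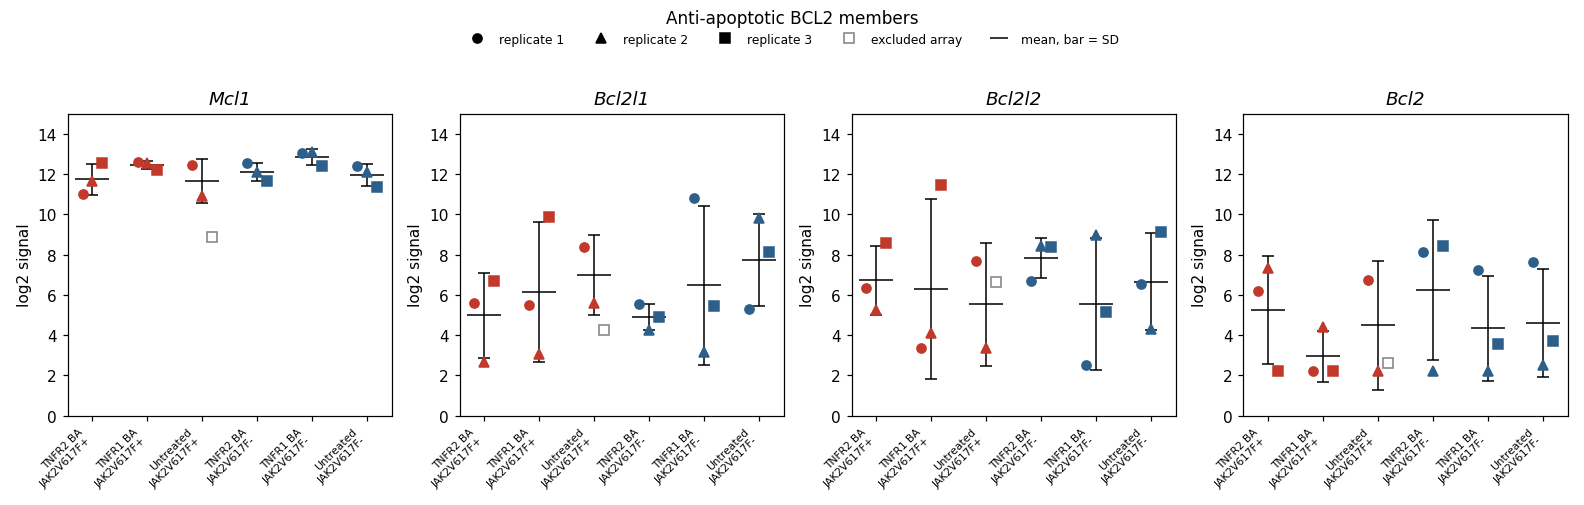
Log2 signal (y axis) of the 4 anti-apoptotic BCL2 members on each array, by group on the x axis, with lines and bars for the mean ± SD of the used arrays. Mcl1 stayed above 10.90 on all 17 arrays, while Bcl2l1, Bcl2l2 and Bcl2 ranged over several log2 units within groups.

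Repeated values marked some of the dim members. Bcl2l15 was at the lowest value on 12 of 17 arrays, Birc6 on 4, Casp12 on 4 and Bcl2l11 and Cflar on 3 each. In all, 11 members (22.9%) were at it on at least 1 array, against 20.8% of all probe sets. Other members repeated a value of their own to the last deposited decimal. Bcl2l13 was 7.31 on 6 arrays, Bok 2.72 on 5, Aifm2 3.33 on 5, Pdcd1lg2 2.43 on 5 and Endog 6.51 on 4, so these arrays carry no order among themselves for the gene.

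Over the 3 treatments, 0 of 48 members differed between JAK2V617F+ and JAK2V617F- cells past an adjusted p of 0.05 (limma), a threshold that 37 of 10335 probe sets passed (0.358%). At an unadjusted p under 0.05 there were 3 members (6.25%), against 10.3% of all probe sets. The median difference, JAK2V617F+ minus JAK2V617F-, was -0.07 for the members and 0.00 for all probe sets. The arrays of the genotypes overlapped for every member (0 without overlap, against 0.242% of probe sets). The 3 members were Birc6, lower in JAK2V617F+ cells, and Bag6 and Pdcd7, higher in them (plot of Birc6, Bag6 and Pdcd7). Their shares were not above the background, and these differences did not pass the adjusted threshold.

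Birc6 encodes a very large ubiquitin-conjugating enzyme with an IAP domain. In JAK2V617F+ cells it was read at 4.27, 2.22 and 2.22 with TNFR2 BA, at 10.12, 3.90 and 2.22 with TNFR1 BA and at 3.0 and 2.22 untreated, where the excluded array gave 2.34. In JAK2V617F- cells it was read at 7.20, 8.86 and 7.82 with TNFR2 BA, at 6.84, 4.93 and 9.40 with TNFR1 BA and at 3.94, 6.33 and 7.37 untreated. All JAK2V617F+ arrays but TNFR1 BA replicate 1 thus lay at or below 4.27, and 8 of 9 JAK2V617F- arrays lay above it. The difference was -3.32 log2 units (standard error, SE, 1.04, 95% confidence interval -5.50 to -1.14, adjusted p = 0.253, limma), and Birc6 was lower in 7 of 8 pairs of 1 treatment and replicate number. Within replicates 1, 2 and 3 it was -0.19, -3.93 and -6.40. Without TNFR1 BA JAK2V617F+ replicate 1 the difference was -4.11 with an adjusted p of 0.0406, and over all leave-one-out settings the adjusted p ran between 0.0406 and 0.777. That array also had the lowest Kit signal of the 17 (3.71) and its Xiap signal was at the lowest value of 2.22, and the part of this in the Birc6 value was not tested. As 4 JAK2V617F+ arrays sat at the lowest value, the size of the difference is bounded by it.

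Bag6 is a chaperone that guides newly made tail-anchored membrane proteins and misfolded proteins. It was read at 10.81, 9.65 and 9.17 with TNFR2 BA, 9.07, 10.03 and 9.54 with TNFR1 BA and 9.42 and 10.58 untreated (10.32 on the excluded array) in JAK2V617F+ cells. The JAK2V617F- values were 8.59, 9.13 and 8.55 with TNFR2 BA, 8.15, 9.81 and 6.98 with TNFR1 BA and 8.40, 7.24 and 8.38 untreated. Only 2 JAK2V617F- arrays, both of replicate 2, reached above the lowest JAK2V617F+ value. Bag6 was higher by 1.45 (SE 0.48, 95% interval 0.45 to 2.45, adjusted p = 0.295, limma), in 8 of 8 pairs. The difference was 1.39, 1.36 and 1.59 within replicates 1, 2 and 3, and 1.12, 1.23 and 1.99 in TNFR2 BA, TNFR1 BA and untreated cells.

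Pdcd7 encodes a protein of the minor spliceosome. In JAK2V617F+ cells it was read at 7.58, 10.12 and 8.39 with TNFR2 BA, 8.89, 9.32 and 7.14 with TNFR1 BA and 7.0 and 10.20 untreated (8.47 on the excluded array). In JAK2V617F- cells it was read at 6.93, 4.98 and 7.08, then 6.66, 7.63 and 6.89, then 7.24, 6.39 and 5.59 in the same order of treatments. The groups overlapped between 7.0 and 7.63. Pdcd7 was higher in JAK2V617F+ cells by 1.98 (SE 0.67, 95% interval 0.58 to 3.38, adjusted p = 0.304, limma) and in 7 of 8 pairs. Replicate 2 gave the larger part, at 3.54, against 0.88 and 0.77 within replicates 1 and 3.

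**Figure D3:**
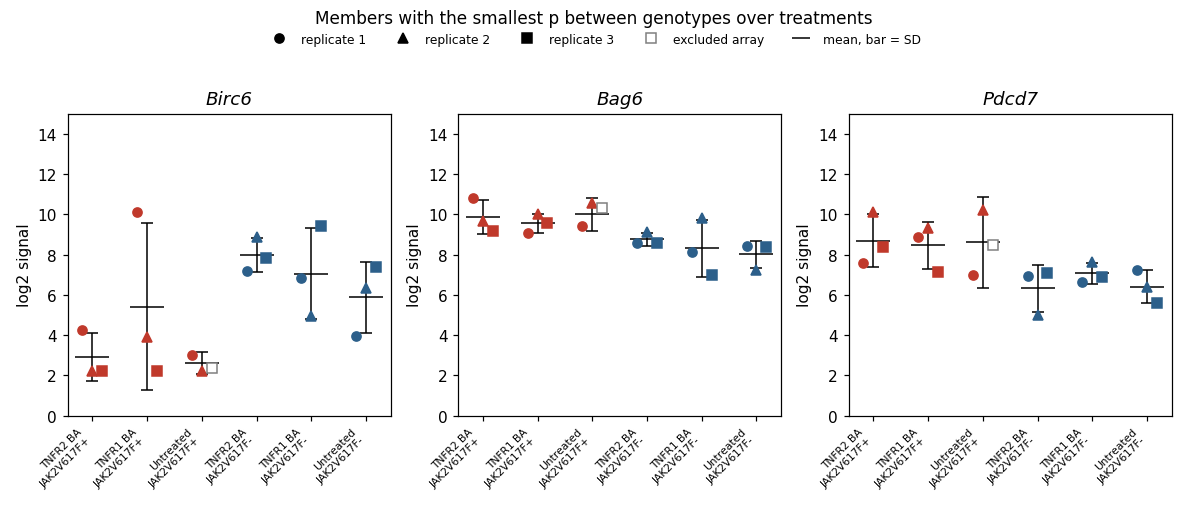
Log2 signal (y axis) of Birc6, Bag6 and Pdcd7 on each array, by group on the x axis, with lines and bars for the mean ± SD of the used arrays and the excluded array as an open symbol. Birc6 was low on every JAK2V617F+ array but TNFR1 BA replicate 1 (10.12), and Bag6 and Pdcd7 lay higher on most JAK2V617F+ arrays.

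By role, the anti-apoptotic genes were below 0 for 4 of 4 (-0.84 to -0.34) and the IAP genes for 3 of 3 (-3.32 to -0.18). The BAG co-chaperones were above 0 for 5 of 6 (-0.10 to 1.78) and the PDCD genes for 4 of 9 (-0.86 to 1.98). Over all probe sets the median difference was 0.00. None of these members passed the adjusted threshold, and the signs rest on few arrays. Bcl2l1, Bcl2l2, Birc3 and Bag2 each changed sign without some single arrays. The genes of mitochondrial release and the apoptosome ran between -0.12 and 1.15, with Apaf1 at -0.12 (SE 0.66) and Endog, a mitochondrial nuclease, at 0.79 (SE 0.78). Of the apoptotic caspases, Casp2 had a mean of 8.47 in JAK2V617F+ and 9.61 in JAK2V617F- cells (difference -1.11, SE 0.54, adjusted p = 0.490, limma), Casp6 had a difference of -1.50 (SE 0.83) and Casp9 one of 0.90 (SE 0.84). Cflar differed by -1.33 (SE 0.97), Bcl2l11 by -1.03 (SE 1.61), Bid by 0.69 (SE 0.82), Bad by 0.35 (SE 0.63) and Bok by 0.67 (SE 0.64). Casp1, the inflammasome caspase, differed by 0.30 (SE 0.65) and Birc3, an IAP induced by NF-κB, by -0.18 (SE 0.89).

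For some of the bright genes, though not for Aifm1, Bag5, Birc5 or Bnip3, the intervals bounded the difference to within 1 log2 unit. The 95% interval lay within 1 log2 unit of 0 on either side for 9 members, among them Mcl1 (-0.92 to 0.22), Bak1 (-0.49 to 0.64), Cycs (-0.40 to 0.83), Diablo (-0.84 to 0.80), Bag1 (-0.05 to 0.64) and Pdcd4 (-0.48 to 0.25). It lay within 2 log2 units for 23 of 48. The median distance from the estimate to either end of the interval was 1.46 over the members, so for most of them a difference of 1 log2 unit between the genotypes was not detectable with these arrays.

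In untreated cells, 0 of 48 members passed the adjusted threshold between genotypes (limma; 8 probe sets did, 0.0774%) and 3 had an unadjusted p under 0.05 (6.25%, against 7.32% of all probe sets). These 3 were Birc5, Diablo and Bag6, of which Bag6 was higher in JAK2V617F+ cells by 1.99. Casp6, also given below, was not among them. The arrays of the genotypes did not overlap for 9 members (18.8%), against 22.4% of probe sets. Birc5 (survivin), an IAP family protein of the chromosomal passenger complex that is made in dividing cells, was read at 12.08 and 9.73 in JAK2V617F+ cells, against 12.44, 12.40 and 12.27 in JAK2V617F- cells, and at 11.87 on the excluded array. The difference was -1.47 (SE 0.55, adjusted p = 0.533, limma), and 1 array decided its size. That array, replicate 2, was the one with the lowest mean correlation, and the part of this in the values of Birc5, Diablo and Cycs was not tested. Without untreated JAK2V617F+ replicate 1, a lone array (9.73) stood for the group and was assumed to vary like the others, and the difference was -2.64 with an adjusted p of 0.0162. It was -0.27 without replicate 2 in either genotype, and -1.14 with all 18 arrays.

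Diablo, the mitochondrial antagonist of IAPs, was read at 10.03 and 8.02 in untreated JAK2V617F+ cells, against 9.89, 11.33 and 10.90 in untreated JAK2V617F- cells, with 7.38 on the excluded array. It differed by -1.68 (SE 0.73, adjusted p = 0.618, limma), and the groups overlapped. The size rested on the 2 untreated JAK2V617F+ arrays, as it was -0.67 without untreated JAK2V617F+ replicate 2 and -2.68 without replicate 1. Casp6, an executioner caspase, was read near the lowest value in JAK2V617F+ cells (2.22 and 2.26) and at 7.02, 4.40 and 4.93 in JAK2V617F- cells, a difference of -3.21 (SE 1.55, adjusted p = 0.684, limma). The excluded array gave 10.41 for Casp6, above every other array, so this separation rests on the arrays used.

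With TNFR1 BA, 0 members passed between genotypes (limma; 9 probe sets, 0.0871%) and 3 had an unadjusted p under 0.05 (6.25%, against 6.21%). Pdcd6 was read at 11.65, 11.73 and 12.07 in JAK2V617F+ cells, against 11.31, 10.08 and 10.43 in JAK2V617F- cells, without overlap, and differed by 1.21 (SE 0.41, adjusted p = 0.579, limma). Bag1 was read at 13.08, 13.53 and 12.89 in JAK2V617F+ cells and 12.58, 12.07 and 12.79 in JAK2V617F- cells, a difference of 0.69 (SE 0.27, adjusted p = 0.694, limma), and did not overlap. Cycs differed by 1.03 (SE 0.49, adjusted p = 0.799, limma), with overlap, and by 0.68 without TNFR1 BA JAK2V617F- replicate 1. Arrays were separate for 5 members (10.4%), against 10.1% of probe sets.

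With TNFR2 BA, 0 members passed (limma; 4 probe sets, 0.0387%) and 2 had an unadjusted p under 0.05 (4.17%, against 5.63%). They were again Birc6, with a mean of 2.90 ± 1.19 in JAK2V617F+ and 7.96 ± 0.84 in JAK2V617F- cells (SD, n = 3 each; difference -5.06, SE 1.72, adjusted p = 0.692, limma), and Pdcd7, with 8.70 ± 1.30 and 6.33 ± 1.17 in the same order (difference 2.36, SE 1.11, adjusted p = 0.880, limma). Neither gene's arrays overlapped in this treatment. Such separation was found for 6 members (12.5%), against 10.1% of probe sets. The TNFR2 BA arrays also enter the mean over treatments, so these values are not separate evidence.

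TNFR1 BA against untreated JAK2V617F+ cells gave 0 members past the adjusted threshold (limma; 1 probe set, 0.00968%) and 3 at an unadjusted p under 0.05 (6.25%, against 6.78%), each higher with the antibody. Cycs, the electron carrier that opens the apoptosome, was read at 12.42, 12.78 and 11.58 with TNFR1 BA, against 11.47 and 10.44 untreated (11.05 on the excluded array). The difference was 1.31 (SE 0.54, adjusted p = 0.675, limma) and the arrays did not overlap. It was 0.79 without untreated JAK2V617F+ replicate 2. Casp4, the murine caspase-11 that senses intracellular lipopolysaccharide, was read at 10.54, 10.00 and 10.30 with TNFR1 BA, against 5.14 and 7.20 untreated (2.64 on the excluded array), a difference of 4.11 (SE 1.79, adjusted p = 0.705, limma). The 3 TNFR1 BA arrays lay close together, while Casp4 had an SD of 2.44 with TNFR2 BA in the same cells and of 2.05 with TNFR1 BA in JAK2V617F- cells. Arrays did not overlap for 9 members (18.8%), against 18% of probe sets.

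Birc5 was read at 12.05, 12.29 and 12.28 with TNFR1 BA, against 12.08 and 9.73 untreated, in JAK2V617F+ cells. It differed by 1.30 (SE 0.55, adjusted p = 0.680, limma), by 2.48 (adjusted p = 0.0280) when untreated JAK2V617F+ replicate 1 was left out and by 0.13 when replicate 2 was. In JAK2V617F- cells Birc5 was read at 11.52, 11.63 and 11.38 with TNFR1 BA, against 12.44, 12.40 and 12.27 untreated, without overlap (-0.86, SE 0.49, adjusted p = 1, limma). The difference between these antibody effects was 2.16 (SE 0.73, adjusted p = 0.918, limma). It came to 3.34 with an adjusted p of 0.0493 without untreated JAK2V617F+ replicate 1, and was between 0.98 and 3.39 over the leave-one-out settings. All of these values share the untreated arrays with the genotype comparison above.

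**Figure D4:**
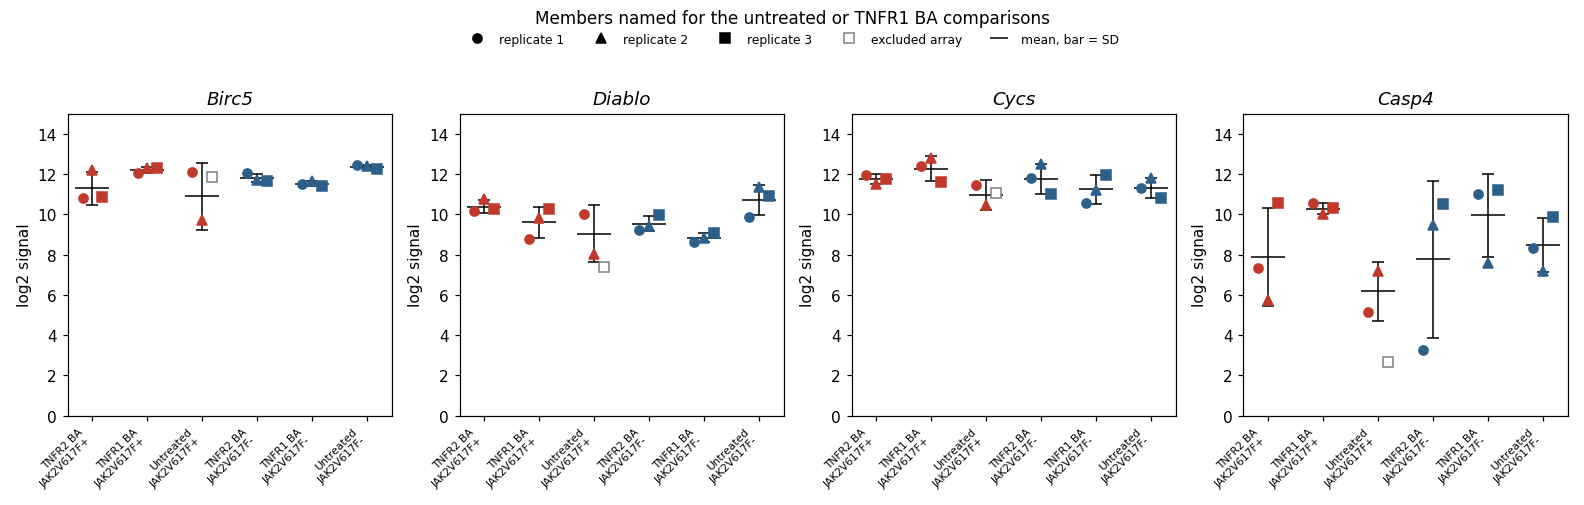
Log2 signal (y axis) of Birc5, Diablo, Cycs and Casp4 on each array, by group on the x axis, with lines and bars for the mean ± SD of the used arrays and the excluded array as an open symbol. Of the 2 used untreated JAK2V617F+ arrays, replicate 2 was the lower for Birc5 (9.73), Diablo (8.02) and Cycs (10.44), and Casp4 was near 10 on all TNFR1 BA JAK2V617F+ arrays.

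Diablo was named in 3 further comparisons. In JAK2V617F+ cells it was read at 10.15, 10.74 and 10.27 with TNFR2 BA and at 8.76, 9.81 and 10.24 with TNFR1 BA, against 10.03 and 8.02 untreated. In JAK2V617F- cells it was read at 9.23, 9.40 and 9.96 with TNFR2 BA and at 8.64, 8.80 and 9.09 with TNFR1 BA, against 9.89, 11.33 and 10.90 untreated. The TNFR1 BA difference in JAK2V617F- cells was -1.86 (SE 0.65, adjusted p = 1, limma), without overlap. It was the only member with an unadjusted p under 0.05 of that comparison (2.08%, against 3.73% of probe sets), in which no probe set passed the adjusted threshold, and 1 of 3 members without overlap (6.25%, against 8.25%). The antibody effect in JAK2V617F+ minus that in JAK2V617F- cells was 2.44 for TNFR1 BA (SE 0.98, adjusted p = 0.924) and 2.53 for TNFR2 BA (SE 0.98, adjusted p = 0.997, limma). Both share the untreated arrays, and were 1.43 and 1.53 without untreated JAK2V617F+ replicate 2.

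Of the comparisons of effects between genotypes, 2 members had an unadjusted p under 0.05 for TNFR1 BA (4.17%, against 5.22%) and 1 for TNFR2 BA (2.08%, against 3.83%), with 0 past the adjusted threshold (limma). TNFR2 BA against untreated cells gave 0 members at either threshold in JAK2V617F+ cells (limma; 5.26% of probe sets had an unadjusted p under 0.05, and 3 probe sets, 0.029%, passed the adjusted threshold) and 0 at either in JAK2V617F- cells (2.47% of probe sets unadjusted and none adjusted). Without untreated JAK2V617F+ replicate 1 the first of these counts was 4 members at an unadjusted p under 0.05. The arrays did not overlap for 7 members in JAK2V617F+ cells (14.6%, against 15.6% of probe sets) and for 5 in JAK2V617F- cells (10.4%, against 7.8%). The smallest p in JAK2V617F+ cells belonged to Casp6, with a mean of 5.13 ± 1.94 (SD, n = 3) under TNFR2 BA and values of 2.22 and 2.26 untreated (difference 2.89, SE 1.55, adjusted p = 0.979, limma). The 10.41 of the excluded untreated array lay above all 3 of them.

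Between the antibodies, TNFR2 BA against TNFR1 BA, 0 members and 0 probe sets passed the adjusted threshold in either genotype (limma). In JAK2V617F- cells 3 members had an unadjusted p under 0.05 (6.25%, against 3.7% of probe sets). Casp9, the initiator caspase of the apoptosome, was read at 8.30, 8.85 and 9.14 with TNFR2 BA, against 7.24, 2.64 and 3.68 with TNFR1 BA, without overlap, and differed by 4.24 (SE 1.40, 95% interval 1.30 to 7.19, adjusted p = 1, limma). Untreated JAK2V617F- cells spanned both, at 6.28, 4.27 and 9.39. Casp9 in JAK2V617F+ cells was read at 8.96, 7.05 and 9.21 with TNFR2 BA, against 6.76, 6.30 and 4.99 with TNFR1 BA, also without overlap, a difference of 2.39 (SE 1.40, adjusted p = 1, limma). Casp9 was among 7 members without overlap in JAK2V617F- cells (14.6%, against 8.43% of probe sets) and 4 in JAK2V617F+ cells (8.33%, against 8.03%).

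The others were Pdcd6, at 11.85, 11.13 and 12.04 with TNFR2 BA, against 11.31, 10.08 and 10.43 with TNFR1 BA (difference 1.07, SE 0.41, adjusted p = 1, limma), and Bcl2l13, a mitochondrial BCL2-like protein, with a difference of 3.04 (SE 1.41, adjusted p = 1), whose values included the repeated 7.31. The Bcl2l13 difference was 1.78 without TNFR1 BA JAK2V617F- replicate 3 and 4.59 without replicate 2. The TNFR1 BA JAK2V617F- arrays of Pdcd6 also gave its genotype difference with TNFR1 BA, so these results are not separate evidence. With all 18 arrays neither Pdcd6 difference had an unadjusted p under 0.05 (0.144 between genotypes and 0.194 between antibodies, limma). In JAK2V617F+ cells 2 members had an unadjusted p under 0.05 (4.17%, against 4.37%), both lower with TNFR2 BA. Bag5, a co-chaperone of Hsp70, was read at 9.49, 8.11 and 10.08 with TNFR2 BA, against 11.38, 11.06 and 10.76 with TNFR1 BA (-1.84, SE 0.73, adjusted p = 1, limma). Bok, a BCL2 effector found at the endoplasmic reticulum, was read at 2.59, 2.72 and 2.72, against 4.39, 8.24 and 2.66 (-2.42, SE 1.07, adjusted p = 1, limma), a difference that was -0.85 without TNFR1 BA replicate 2 and -3.64 without replicate 3.

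Of 49 other cell death genes listed for comparison, 37 were measured. Between genotypes over the treatments, 2 passed the adjusted threshold (limma). Gzmb, the granzyme B of mast and cytotoxic cells, rose by 1.52 in JAK2V617F+ cells (SE 0.25, adjusted p = 0.00708), and Xiap, the IAP that binds caspases directly, fell by 4.19 (SE 0.71, adjusted p = 0.00774). Both calls held without any single array. Without all arrays of a replicate number, Xiap was not past the threshold in any of the 3 settings (adjusted p = 0.0723 to 0.266) and Gzmb only without replicate 2. Gzmb also missed it with variances fitted without a trend (adjusted p = 0.0899), and both genes by the methods' t-test. Xiap was also the 1 gene of this list past the threshold in untreated cells (-7.82, adjusted p = 0.0188) and for TNFR2 BA in JAK2V617F+ cells (8.37, adjusted p = 0.0291). In JAK2V617F+ cells it was read at 9.83, 10.53 and 12.01 with TNFR2 BA and at 2.53 and 2.31 untreated, next to the lowest value of 2.22, so the size of these differences is bounded by it. The excluded array gave 6.57, and with all 18 arrays neither difference passed (-6.44, adjusted p = 0.123, and 6.98, adjusted p = 0.238, limma). The call in untreated cells was also lost without untreated JAK2V617F+ replicate 2 or untreated JAK2V617F- replicate 1 or 3. That for TNFR2 BA was lost without untreated JAK2V617F+ replicate 2, TNFR2 BA JAK2V617F+ replicate 2 or 3, TNFR2 BA JAK2V617F- replicate 1 or TNFR1 BA JAK2V617F- replicate 1 or 3. Both calls, in this order, were also lost with array weights (adjusted p = 0.0540 and 0.182, limma) and in fits of the compared groups alone (0.650 and 0.985). They were lost by the methods' t-test, and without all arrays of any replicate number. Without replicate 3 the adjusted p was 0.280 and 0.406 (limma). Without replicate 1 or 2 a lone array stood for the untreated JAK2V617F+ cells. The differences were then -7.90 and 8.95 without replicate 1, and -8.39 and 8.39 without replicate 2. The TNFR2 BA call was lost with the replicate block as well (adjusted p = 0.0612, limma) and without a variance trend (0.0584). The IAP members on the same arrays gave -0.02 (Birc3), -1.47 (Birc5) and -3.27 (Birc6) in untreated cells, with none past the threshold.

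One member separated the replicate numbers in place of the groups. Bnip3, a mitochondrial protein that marks mitochondria for autophagy and is a known target of hypoxia-inducible factor (HIF), was singled out after its values were seen. Its promoter is shown since HIF can bind ACGTG. Only this form of the HIF core was searched, on both strands. The RefSeq window on the minus strand of GRCm38.p6, chr7:138909457-138909756, holds ACGTG once on each strand. The copies overlap and make up the palindrome CACGTG, given in capitals, and other forms of the core are not marked. ACGTG occurs on either strand in 19.6% of 32851 mouse promoter windows of this length, and such a match is a description, not a site.
Bnip3 promoter: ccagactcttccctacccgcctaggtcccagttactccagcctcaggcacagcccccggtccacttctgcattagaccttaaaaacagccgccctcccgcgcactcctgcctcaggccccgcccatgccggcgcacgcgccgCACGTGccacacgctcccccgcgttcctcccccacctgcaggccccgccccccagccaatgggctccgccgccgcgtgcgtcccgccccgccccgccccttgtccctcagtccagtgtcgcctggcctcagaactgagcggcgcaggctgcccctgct

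In replicate 2 Bnip3 was read at 10.54, 10.71 and 10.05 in TNFR2 BA, TNFR1 BA and untreated JAK2V617F+ cells, and at 10.99, 10.42 and 10.20 in the JAK2V617F- groups in the same order. In replicates 1 and 3 it lay between 12.04 and 13.29 on the 11 arrays used, and at 11.81 on the excluded array. Replicate 2 did not overlap the others in any group. Replicate 2 was lower than the mean of replicates 1 and 3 by 2.32 log2 units (difference -2.32, SE 0.19, adjusted p = 2.36e-05, limma with the replicate number in the fit). In an F test of the replicate number Bnip3 ranked 1 of 10335 probe sets (adjusted p = 6.70e-05), and it ranked 4 with all 18 arrays (adjusted p = 0.000349). It was the only member past the threshold (2.08% of members, against 1.2% of probe sets). Pdcd11, a ribosome biogenesis factor, and Bcl2l13 had an unadjusted p under 0.05, which together with Bnip3 made 6.25% of members against 12.8% of probe sets. Between genotypes Bnip3 differed by -0.40 (SE 0.57, adjusted p = 0.852, limma without the replicate number). What differed between the replicate numbers was not tested.

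**Figure D5:**
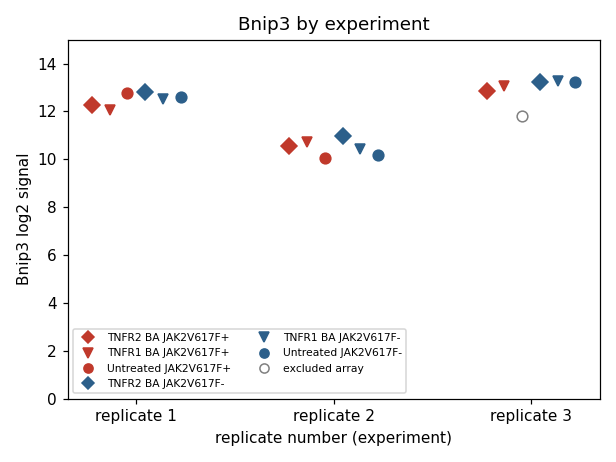
Bnip3 log2 signal (y axis) on each array by replicate number (x axis), with symbols for treatment, colours for genotype and the excluded array open. The word experiment in the plot stands for the replicate number, which the labels do not tie to an experiment. All 6 arrays of replicate 2 lay between 10.05 and 10.99, below every other array.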

How the data were processed

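RNA of sorted Lin-Kit+ cells was amplified, labelled with biotin and hybridised to Affymetrix mouse expression arrays. The authors deposited log2 values for 10335 probe sets, for which the labels name Affymetrix Expression Console. How they were normalized and selected was not given in the sources used here, and the table carries no detection calls. Values were used as deposited. Of the probe sets, 9651 had a single gene symbol, 27 several and 657 none, from the platform annotation, and 9625 were matched by Entrez ID to GRCm38.p6 with 0 symbols changed.

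The 6 group means of 17 arrays were fitted with limma 3.58.1 in R 4.3.3, with variances moderated by a trend and Benjamini-Hochberg adjustment over all probe sets. Named were members with an unadjusted p under 0.05 in the genotype comparison over treatments, up to 5 with the smallest such p elsewhere, and 21 measured genes of a fixed list. Bnip3, Pdcd11 and members named for steady, repeated or outlying values fall outside this rule. The members, marker lists and other cell death genes were chosen with earlier results of these data known. Alternatives were all 18 arrays, a replicate block, quantile normalization, fits of the groups compared alone, a minimum mean of 6, no variance trend, array weights, gene means, the methods' t-test and leave-one-out. The fit was tested on simulated data. No arrays were identical.

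Per the methods the arrays came from 3 separate experiments, but the labels do not tie a replicate number to an experiment. The main fit therefore did not take arrays of 1 number as pairs. The counts of pairs, the differences within replicates and the methods' t-test, a paired test, did match arrays by this number. P-values measure only the spread between these arrays. Promoter sequence came from RefSeq. Protein sequences were not used here.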

Additional observations from a re-analysis of the deposited data

Results flagged for a closer look

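In 96 sets of member values, 1 per gene and genotype, 8 values, on 7 arrays, stood apart from the rest of their genotype by Dixon's test at the 95% level, where chance gives about 1 in 20 sets.

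In JAK2V617F+ cells, Birc6 was 10.12 on TNFR1 BA replicate 1, with the other arrays between 2.22 and 4.27. Bnip5 was 7.94 on TNFR2 BA replicate 2 (others 2.28 to 3.92), Bok was 8.24 on TNFR1 BA replicate 2 (others 2.59 to 4.39) and Cflar was 8.01 on untreated replicate 1 (others 2.22 to 2.73). Pdcd1lg2 was 5.92 on TNFR2 BA replicate 2 (others 2.22 to 2.98). Pdcd4 was low at 12.28 on TNFR2 BA replicate 1 (others 13.15 to 13.79).

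In JAK2V617F- cells, Casp12 was 7.48 on TNFR1 BA replicate 1, with the other arrays between 2.22 and 3.26, and Pdcd4 was 13.65 on TNFR1 BA replicate 3 (others 13.32 to 13.48). Except for Pdcd4, each of these values was high against arrays at the dim end of the scale.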

How the results depend on the processing

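No member passed the adjusted threshold in any of the 12 comparisons under any of the alternatives that kept all arrays of the fit, added the 18th or changed the normalization, filter, variance model or test, nor by the methods' t-test. With the replicate block the number of members past the threshold was 0 in each comparison, so the block changed no call of a member, while the probe sets past it between genotypes over treatments numbered 67, against 37 without the block. Deviations from group means correlated by 0.008, 0.071 and 0.144 on average within replicates 1, 2 and 3 and by -0.033 between numbers, and 14 of 17 arrays were closest to their own number, a hint from the data and not the design. When arrays were left out in turn, the number was between 0 and 1 for the genotype over treatments, the genotype in untreated cells, TNFR1 BA in JAK2V617F+ cells and the TNFR1 BA effect between genotypes, and 0 elsewhere. The 1 was Birc6 without TNFR1 BA JAK2V617F+ replicate 1 (-4.11, adjusted p = 0.0406, limma), or Birc5 without untreated JAK2V617F+ replicate 1 (-2.64, 2.48 and 3.34, with adjusted p of 0.0162, 0.0280 and 0.0493). No named difference changed sign past the threshold, which few member results passed in any setting. Below it, Bcl2l1, Bcl2l2, Birc3 and Bag2 each changed sign between genotypes over treatments without some single arrays. The probe sets past the threshold between genotypes over treatments numbered between 11 and 67 under the alternatives that left no array out, 119 without untreated JAK2V617F+ replicate 1, and 7 and 6 without all arrays of replicate 1 and of replicate 2. Members at an unadjusted p under 0.05 numbered between 1 and 7 there when arrays were left out, with 7 without untreated JAK2V617F+ replicate 1, and between 0 and 5 for TNFR2 BA in JAK2V617F+ cells. Over the other 10 comparisons that number ran between 0 and 5. The fit on only the compared groups has no separate value for the genotype over treatments. Few arrays, repeated values and the shared lowest value limit what the dim members can show.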
